A study of Homo sapiens with 11 samples.

Results

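The DNA replication and S phase genes described here are 45 genes of the 33080 in the deposited tables. They were chosen by symbol from a list of helicase, licensing, polymerase, clamp, chromatin, E2F, fork and repair genes, and all 45 were found. RNA sequencing was done on 769-P, an established line of human clear-cell renal cell carcinoma, in 11 libraries. The si1 group (3 libraries) and the si2 group (4 libraries) each carried a different siRNA against AKR1A1, an aldo-keto reductase that reduces aldehydes, and the siSCR group (4 libraries) carried a control siRNA. Every group was transfected with a lipid reagent for 48 h, so all share the reagent and the time. The si1 and si2 libraries carry the genotype label AKR1A1-/- and the siSCR libraries the label wild-type, although the protocol describes only siRNA, which lowers an RNA without altering the gene. No label tells if the replicates came from separate cultures, and the p-values below therefore measure only the spread between these libraries, which may be technical. In such bulk samples fewer cells in S phase and less of an RNA in each cell cannot be told apart.

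Before S phase, the origin recognition complex with CDC6 and CDT1 loads the MCM2-7 helicase ring onto origins. In S phase, CDC45 and the GINS complex turn that ring into an active helicase, DNA polymerases alpha, delta and epsilon copy the strands, and the clamp PCNA, placed by RFC clamp loaders, holds the polymerases on DNA. E2F transcription factors, held back by the retinoblastoma protein in quiet cells, switch on most of these genes at the entry to S phase, so their RNA is widely used as a sign of proliferation. In clear-cell renal carcinoma, as in other tumours, they are part of the usual proliferation signature.

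Values below are normalized counts, that is read counts divided by the authors' size factor of each library, unless a sentence says log2. AKR1A1 itself stood at 81.7, 23.6 and 45.1 in si1, 56.6, 32.1, 48.3 and 46.1 in si2, and 390.4, 256, 200.1 and 242 in siSCR libraries, so no si1 or si2 library overlapped the controls. Its log2 fold change was -2.54 in si1 (SE 0.42, limma adjusted p = 0.0357) and -2.53 in si2 (SE 0.24, limma adjusted p = 0.00218). Reads recovered on genes numbered 2108546 to 3880155 in si1, 2958944 to 5939514 in si2 and 2271348 to 3836109 in siSCR libraries. Of the 8 markers set for the renal line, 6 reached a normalized count of 10 in some library, VIM and CDH2 among them, while CA9 was at 0 in all 11 libraries. All 5 endothelial markers were at 0, and the summed markers of fibroblasts (12.3 to 30.5 in si1, 38.9 to 61.0 in si2, 25.5 to 52.3 in siSCR) and of leukocytes (33.1 to 86.1 in si1, 35.7 to 88.4 in si2, 58.1 to 113 in siSCR) were low, with 2 of 6 in each list at 0 throughout. The library siSCR 1 stood apart from the other controls, and most counts and medians are given with and without it. Mitochondrially encoded genes took 12.1% of its reads, against 3.46% to 4.46% in siSCR 2 to 4. That share was 11.1%, 6.57% and 7.82% in si1 and 4.59% to 5.12% in si2 libraries, so si1 1 was also high.

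Promoter windows were available for 37 of the 45 members in RefSeq (assembly GRCh38.p14), each from 250 bases before to 50 bases after a transcript start. They were searched on both strands for the E2F elements TTTCCCGC, TTTCGCGC, TTTGCCGC and TTTGGCGC, which E2F factors bind. Such an element was found in 21 of the 37 members (56.8%), against 575 of the 8130 genes tested in si1 against siSCR that had a window (7.07%) and 3.99% of all 27305 genes with one. The following windows are shown because their genes recur in the comparisons below. Capitals mark the element, as it reads on the gene's own strand, with 10 bases on each side.
MCM2, chr3:127598403-127598430, plus strand: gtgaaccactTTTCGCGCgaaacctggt
MCM7, chr7:100101389-100101416, minus strand: gggggcgacgTTTCGCGCcaatttcggt
CDC6, chr17:40287876-40287903, plus strand: gccattcggaTTTGGCGCgagcgcggct
CDT1, chr16:88803744-88803771, plus strand: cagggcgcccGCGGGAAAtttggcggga
GINS3, chr16:58392456-58392483, plus strand: gtccccgggcGCGGGAAAcgagtttcaa
RFC3, chr13:33818084-33818111, plus strand: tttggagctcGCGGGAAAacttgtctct
PCNA, chr20:5126664-5126691, minus strand: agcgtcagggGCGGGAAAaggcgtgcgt
POLA2, chr11:65261899-65261926, plus strand: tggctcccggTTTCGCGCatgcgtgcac
UHRF1, chr19:4909477-4909504, plus strand: ccgagttttcGCGGGAAAaaaatcagag
E2F1, chr20:33686388-33686415, minus strand: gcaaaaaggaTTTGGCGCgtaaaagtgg
CLSPN, chr1:35769966-35769993, minus strand: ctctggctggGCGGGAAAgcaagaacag
RFC3, CDT1, GINS3, PCNA, UHRF1 and CLSPN share the same 8 letters, read here as the reverse complement of TTTCCCGC. The CCAAT box, a promoter element bound by the factor NF-Y, was in 22 of the 37 members (59.5%) against 43.9% of the tested genes with a window. The CHR element (TTTGAA or TTCGAA), known from promoters of mitotic genes, was in 1 of the 37, MCM6, against 15.3% of those genes. The median log2 fold change in si1 against siSCR was -1.44 over the 21 members with an E2F element and -1.10 over the 16 without one. The ranges overlapped widely, at -2.45 to -0.31 with the element and -2.40 to 0.060 without it. In si2 against siSCR the medians were -0.48 with and -0.40 without the element, with ranges of -1.01 to 0.0013 and -0.73 to -0.064. These values were taken with all 4 siSCR libraries only, and a difference by element was not tested. A match of letters is a description of the window and shows no binding.

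Most members varied together over the libraries, and the libraries lay at separate levels of them. The 45 genes together took 0.0612%, 0.116% and 0.103% of the reads on genes in si1 libraries, 0.154%, 0.154%, 0.156% and 0.154% in si2 libraries, and 0.107%, 0.268%, 0.268% and 0.268% in siSCR libraries. The 95% Wilson interval reached at most 0.00672 percentage points to either side of these shares, and covers counting error only. The si2 libraries thus lay close to each other, between siSCR 2 to 4 above them and the si1 libraries below them, while siSCR 1 lay among the si1 libraries. Within si1 the first library, which also had the highest mitochondrial share of that group, stood apart with the lowest share on the members. As the mean log2 value of the members, centred per gene, the level was -1.26, -0.60 and -0.61 in si1, 0.10, 0.079, 0.12 and 0.059 in si2, and -0.52, 0.86, 0.93 and 0.85 in siSCR libraries. The SD of this mean within a group was 0.378 in si1, 0.0248 in si2 and 0.699 in siSCR, and 0.0444 over siSCR 2 to 4.

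**Figure D1:**
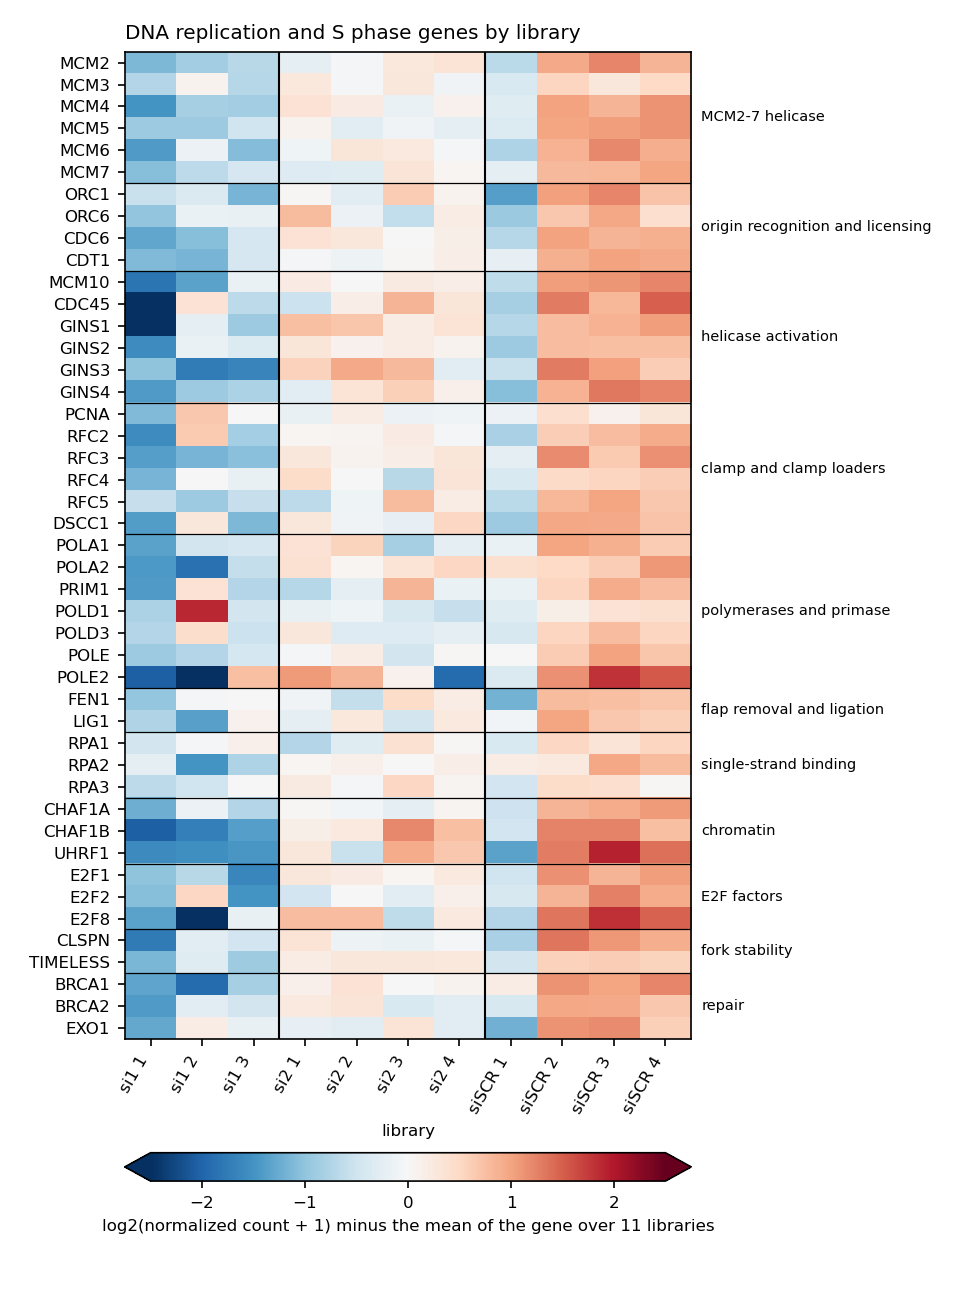
Each row is 1 of the 45 genes, grouped by complex, and each column 1 library of si1, si2 or siSCR; colour gives log2(normalized count + 1) minus the gene's mean over the 11 libraries, and values beyond 2.5 in either direction take the end colours. The siSCR 2 to 4 columns are the highest, the si2 columns lie near the middle, and siSCR 1 looks like the si1 columns, with a mean of -0.52.

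**Figure D2:**
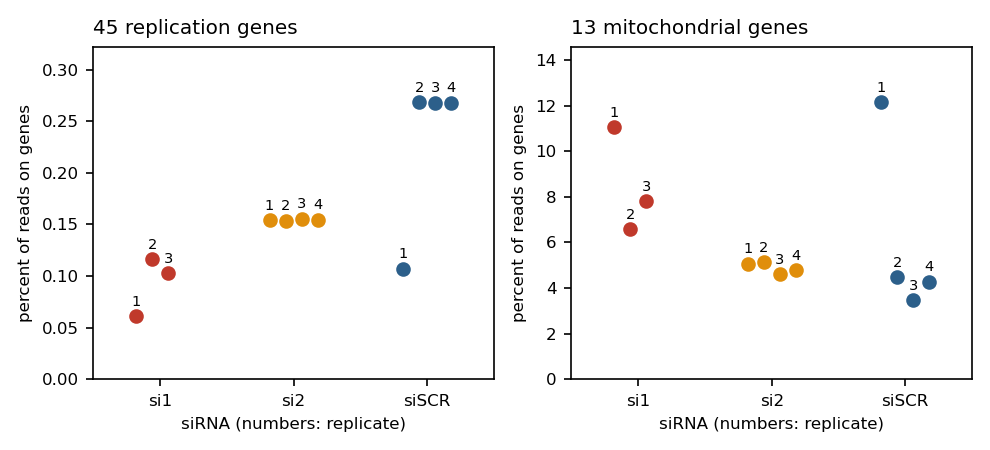
Points are libraries, numbered by replicate; the vertical axis gives the percent of reads on genes taken by the 45 members (left) and by the 13 mitochondrially encoded genes (right), for si1, si2 and siSCR. The 4 si2 points lie together at 0.154% to 0.156% for the members, and siSCR 1 is apart from siSCR 2 to 4 in both panels, with 0.107% of reads on members and 12.1% on mitochondrial genes.

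The siSCR 1 library was the lowest of the 4 controls in all 45 members, as it was in 35.8% of the 10517 genes tested. It lay under 50% of the lowest other control in 30 of the 45, against 4.7% of the genes tested. The ratio of siSCR 1 to the mean of the other controls had a median of 0.347, from 0.108 in UHRF1 to 0.776 in POLA2. Set against the si2 libraries, siSCR 1 was below all 4 in 31 members, within their range in 13 and above them in 1, RPA2. Set against the si1 libraries, it was below all 3 in 2 members (ORC1 and FEN1), within their range in 28 and above them in 15. The places of siSCR 1 against si2 and si1 were not counted over all genes, so no share stands beside them. The same library had the highest AKR1A1 level of all 11, so for the targeted gene it stood with the controls.

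Set against siSCR, si1 shows which RNAs differ after knockdown with the first siRNA. Replication RNAs were lower in si1: 44 of 45 members had a negative log2 fold change, against 52.1% of the 10517 genes tested, with a median of -1.33 against -0.030 over all genes. With limma, 4 of 45 fell at an adjusted p under 0.05 and 0 rose, against 0.932% of genes called lower and 0.789% called higher. They were BRCA1, which works in homologous recombination, POLA2, the regulatory subunit of DNA polymerase alpha, RFC3, a clamp loader subunit, and CHAF1B, a subunit of the histone chaperone CAF-1. CHAF1B passed the filter on low values only through siSCR, the group where it was higher. POLA2 reached a normalized count of 10 in si1 3 alone of the si1 libraries (18.03), so it too needed the siSCR libraries to pass. At an unadjusted p under 0.05, 30 of 45 were lower (12.4% of all genes), and in 15 of 45 every si1 library lay below every siSCR library (10.9% of all genes). Without siSCR 1, 28 of 45 fell (6.52% of genes), the groups did not overlap in 42 (21.4% of genes), and the median was -1.65. With any other single library left out, limma called 0 of the 42 to 45 members tested, with at most 0.0372% of all genes called. The 4 calls were also lost with no filter on low values (0.0301% of genes called) and with the replicate number as a block (0 genes called). With the share of mitochondrial reads as a covariate 6 of 45 were called (2.26% of genes), and with voom on the recovered reads 8 were called lower (2.41% of genes). By the authors' deposited table for si1, the number of members lower at an adjusted p under 0.05 was 27 of 45, as were 5.33% of the genes tested here.

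For the second siRNA the same question was put to si2 and the same 4 control libraries, so the results with si1 and si2 are not independent. The members again lay mostly below the controls, but by less: 43 of 45 had a negative log2 fold change (50.9% of 10249 genes), with a median of -0.46 against -0.0080 over all genes. With limma 0 of 45 were called in either direction, against 3.12% of genes called, while 9 were lower at an unadjusted p under 0.05 (9.22% of genes) and voom also called 0 lower (1.71% of genes). Only RPA2 had every si2 library below every siSCR library, a pattern seen in 5.5% of genes. Without siSCR 1, 27 of 45 fell (6.68% of genes), 35 did not overlap (14.6% of genes), and the median was -0.81. With the share of mitochondrial reads as a covariate, and all 4 controls, 19 of 45 were called, against 13.1% of genes. That share was 12.1% in siSCR 1 and 3.46% to 5.12% in the other libraries compared here. The covariate thus mostly marks siSCR 1, and its fit is not independent of the one without that library. The authors' deposited table gave 2 members as lower, MCM5 (log2 fold change -0.78, adjusted p = 0.0243) and BRCA1 (log2 fold change -0.68, adjusted p = 0.0244), against 2.35% of genes.

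**Figure D3:**
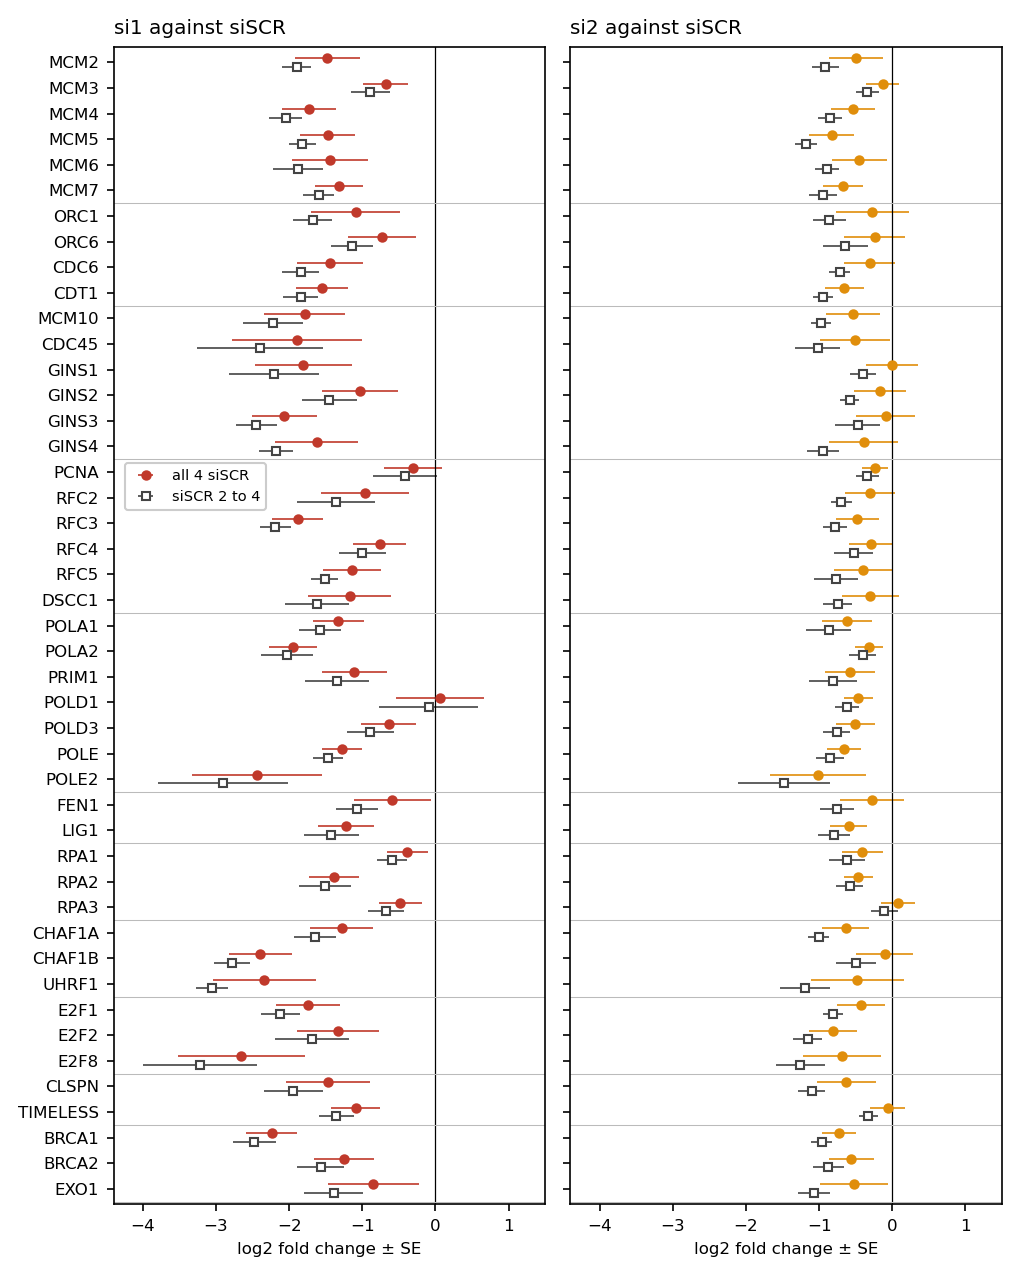
Log2 fold changes with their SE for the 45 members in si1 (left) and si2 (right) against siSCR, from limma with all 4 siSCR libraries (filled circles) and with siSCR 2 to 4 (open squares). The squares lie left of the circles for every member in both panels, and the members' median is -1.65 without siSCR 1 against -1.33 with it in si1, and -0.81 against -0.46 in si2.

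The comparison of si2 with si1 sets both siRNAs against each other and uses no control library. Members were higher in si2: 12 of 45 rose and 0 fell, against 3.71% of 10448 genes called higher and 3.02% called lower. They were MCM2, MCM4, CDC6, GINS3, GINS4, RFC3, POLA2, CHAF1B, UHRF1, E2F1, TIMELESS and BRCA1, with log2 differences of 0.98 to 2.29. GINS3, CHAF1B and UHRF1 passed the filter on low values only through si2, the group where they were higher, so their calls carry less weight. The same holds for POLA2, which reached a normalized count of 10 in si1 3 alone of the si1 libraries. The median difference over the 45 was 0.84 against 0.035 over all genes, 2 of 45 were negative (47.3% of genes), and in 22 every si2 library lay above every si1 library (13.4% of genes). The mitochondrial share also differed between these groups, and with it as a covariate 1 of 45 was called (1.6% of genes) and the median was 0.27. With no filter on low values 3 of 45 were called (1.37% of genes), and with the replicate number as a block 0 of 42 (0.0579% of genes). Leaving out 1 library gave 3 to 18 calls, with 3 calls without si2 1, si2 2 or si2 4, 5 without si2 3, 6 without si1 1 and 18 without si1 2. RFC3 and CHAF1B were called in each of these fits, while GINS3 was not tested without si2 1, si2 2 or si2 3, and UHRF1 not without si2 1, si2 3 or si2 4.

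**Figure D4:**
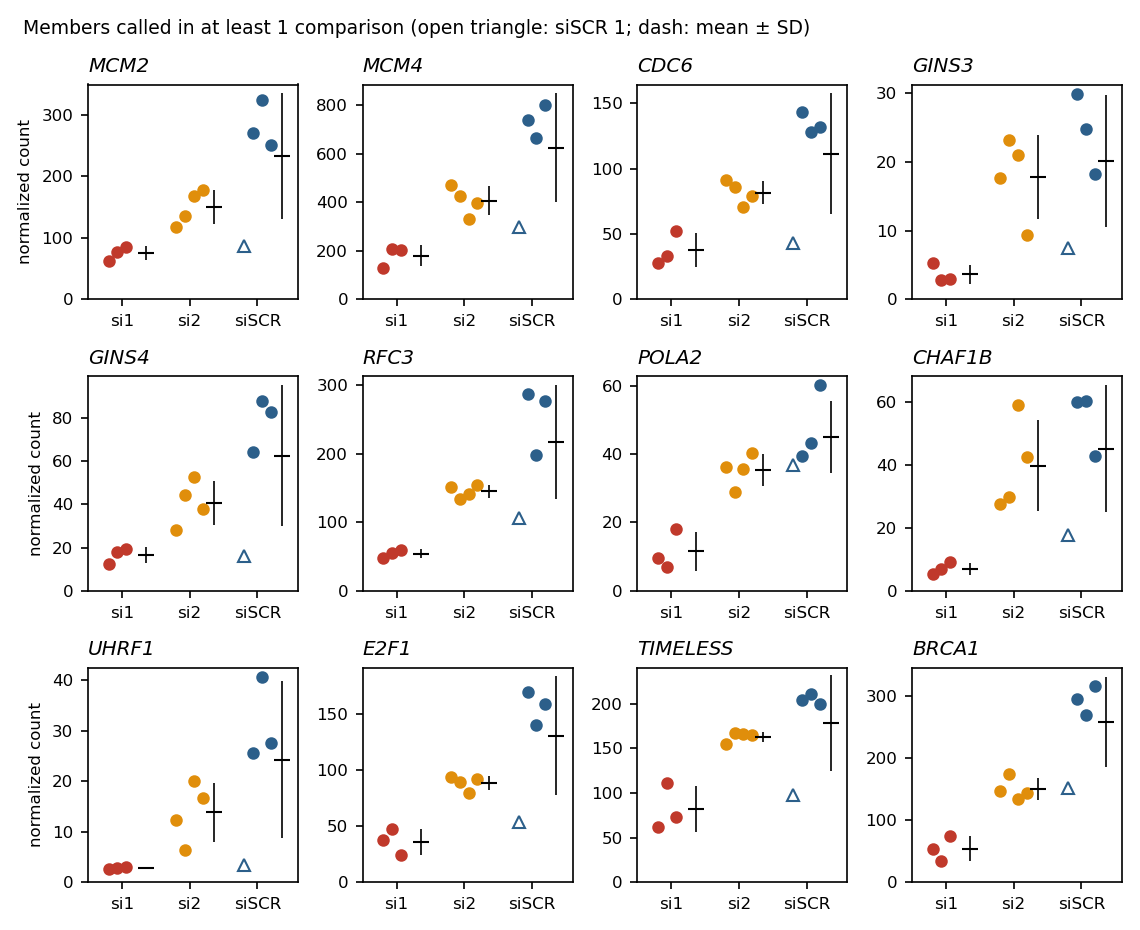
Normalized counts by library for the 12 members called in at least 1 comparison, with si1, si2 and siSCR from left to right; the open triangle is siSCR 1 and the dash with a bar gives the mean ± SD of the group. In all 12 panels the si1 points lie below the si2 points, and siSCR 1 lies below the other 3 controls.

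The MCM2-7 ring, the core of the replicative helicase, had a median log2 fold change of -1.46 over its 6 members in si1 and -0.52 in si2 against siSCR. Without siSCR 1 the medians were -1.85 and -0.90, and 5 of the 6 fell with each siRNA, with MCM3 not called. Over all genes those fits called 6.52% lower in si1 and 6.68% lower in si2. The same shares stand beside every count without siSCR 1 in the groups of members below. MCM4, the ring member with the lowest log2 fold change in si1, had 131, 207 and 201 in si1, 471, 427, 329.8 and 399 in si2 and 299, 737, 665 and 798 in siSCR libraries. The si1 values lay below all controls and the si2 values between siSCR 1 and the other controls. Its log2 fold change was -1.73 (SE 0.37, adjusted p = 0.0609) in si1 and -0.54 (SE 0.30, adjusted p = 0.358) in si2 against siSCR, and it was higher in si2 than in si1 by 1.19 (SE 0.23, limma adjusted p = 0.0248). MCM2 had 63.2, 76.3 and 85.7 in si1, 119, 136, 168 and 177 in si2 and 86.5, 271, 324 and 251 in siSCR libraries. Its si1 values lay just below siSCR 1 and far below siSCR 2 to 4, and the log2 difference of si2 to si1 was 0.98 (SE 0.21, limma adjusted p = 0.0335). Of the exon bases of MCM2, 23.6% are shared with another annotated gene, which could affect its counts. MCM7 had 218, 290.0 and 339.6 in si1, 364, 368, 574 and 470.1 in si2 and 393, 808, 816 and 909 in siSCR libraries. The si1 values were below all controls, with a log2 fold change of -1.32 in si1 and -0.67 in si2 against siSCR. MCM5 had 100.11, 99.9 and 132 in si1, 199.9, 156, 176 and 159 in si2 and 147, 375, 389 and 409 in siSCR libraries, with every si1 value below every control. It had the lowest log2 fold change of the ring in si2, -0.83 (SE 0.31, adjusted p = 0.177), which was -1.18 (adjusted p = 0.00255) without siSCR 1. MCM6 and MCM3 had log2 fold changes of -1.44 and -0.68 in si1 and -0.45 and -0.13 in si2 against siSCR.

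The 4 licensing genes, which load the ring at origins, had median log2 fold changes of -1.26 in si1 and -0.29 in si2 against siSCR, or -1.76 and -0.79 without siSCR 1, where 4 and 3 of the 4 fell. CDT1, which brings the ring to the origin with CDC6 and is held back by geminin, had 64.1, 61.1 and 104 in si1, 134, 127, 141 and 155 in si2 and 119, 259, 279 and 269 in siSCR libraries. No si1 value reached the lowest control, and the si2 values lay just above siSCR 1 and well below the others. The fold change on the log2 scale was -1.55 in si1 and -0.65 in si2 against siSCR. CDC6, the ATPase of the loading step, had 28.1, 33.3 and 52.6 in si1, 91.1, 85.9, 70.4 and 78.8 in si2 and 42.8, 143, 128 and 131 in siSCR libraries. Here siSCR 1 lay within the si1 range, and si2 exceeded si1 by 1.12 on the log2 scale (SE 0.24, limma adjusted p = 0.0324). ORC1 and ORC6, subunits of the origin recognition complex, had log2 fold changes of -1.09 and -0.73 in si1 and -0.27 and -0.24 in si2 against siSCR. ORC1 was counted at 24.4 to 35.3 in siSCR 2 to 4, and at 5.04 in siSCR 1, lower than in any si1 or si2 library.

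The 6 helicase activation genes had a median log2 fold change of -1.80 in si1 and -0.28 in si2 against siSCR, or -2.22 and -0.76 without siSCR 1, where 4 and 3 of 6 fell. MCM10, which helps to activate the loaded helicase, had 24.6, 34.7 and 79.6 in si1, 103, 88.3, 105 and 100.04 in si2 and 57.1, 185, 194 and 208 in siSCR libraries. The si1 values spread around that of siSCR 1, and the 4 si2 values lay within a narrow band above both. GINS3, the GINS subunit with the lowest log2 fold change in si1, had 5.27, 2.78 and 3.01 in si1, 17.7, 23.3, 21.0 and 9.33 in si2 and 7.56, 29.9, 24.9 and 18.3 in siSCR libraries, and rested on 6, 2 and 2 reads in si1. All si1 values lay below all controls, while the si2 values overlapped siSCR 2 to 4. The log2 fold change of GINS3 was -2.06 (SE 0.44, adjusted p = 0.0607) in si1 and -0.090 in si2 against siSCR (-0.47 without siSCR 1), and 1.97 (SE 0.33, adjusted p = 0.0174) in si2 against si1. GINS4 had 12.3, 18.04 and 19.5 in si1, 28.3, 44.1, 52.5 and 37.8 in si2 and 16.0, 64.1, 87.6 and 82.5 in siSCR libraries, and was higher in si2 than in si1 by 1.23 on the log2 scale (SE 0.26, limma adjusted p = 0.0314). Exon bases shared with other annotated genes made up 23.6% in GINS4 and 10.9% in GINS3. GINS1, GINS2 and CDC45 had log2 fold changes of -1.80, -1.03 and -1.89 in si1 against siSCR. In si2 against siSCR theirs were 0.0013, -0.17 and -0.51, or -0.40, -0.58 and -1.02 without siSCR 1, and the library si1 1 held 7.03 of GINS1 and 0.878 of CDC45, the lowest of all 11.

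Among the clamp and its loaders, the 6 genes had a median log2 fold change of -1.05 in si1 and -0.30 in si2 against siSCR, or -1.44 and -0.72 without siSCR 1, where 2 and 3 of 6 fell. RFC3, a subunit of the clamp loader (GRCh38 chr13:33818049-33966558), had 47.4, 55.5 and 60.1 in si1, 152, 134, 141 and 154 in si2 and 107, 286, 198 and 277 in siSCR libraries. The 3 groups did not overlap once siSCR 1 was set aside, and siSCR 1 lay between si1 and si2. Its mean was 54.3 ± 6.42 in si1, 145 ± 9.64 in si2 and 217 ± 83.6 in siSCR (SD, n = 3, 4 and 4), and its log2 fold change -1.88 (SE 0.35, adjusted p = 0.0483) in si1 and -0.48 (SE 0.29, adjusted p = 0.399) in si2 by limma. RFC3 was higher in si2 than in si1 by 1.41 (SE 0.17, limma adjusted p = 0.00726). PCNA, the clamp itself and also a p53 target, had 105, 365 and 227 in si1, 199.9, 257, 204 and 211 in si2 and 205, 302, 245 and 281 in siSCR libraries. The library si1 2 held the highest PCNA of all 11 and si1 1 the lowest, so the si1 values spanned those of every other group. The log2 fold change of PCNA was -0.31 in si1, with a 95% interval of -1.23 to 0.61, and -0.24 in si2, with one of -0.62 to 0.15, and it was not called without siSCR 1 either. The loader subunits RFC2, RFC4 and RFC5, and DSCC1 of the alternative loader, had log2 fold changes of -0.96, -0.76, -1.14 and -1.17 in si1 against siSCR. In si2 against siSCR these were -0.30, -0.30, -0.40 and -0.30.

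The 7 polymerase and primase genes had a median log2 fold change of -1.28 in si1 and -0.58 in si2 against siSCR, or -1.47 and -0.81 without siSCR 1, where 3 of 7 fell with each siRNA. POLA2 (GRCh38 chr11:65261762-65305589) had 9.66, 6.94 and 18.03 in si1, 36.3, 28.9, 35.7 and 40.4 in si2 and 36.9, 39.5, 43.2 and 60.1 in siSCR libraries. It was the member in which siSCR 1 stood nearest to the other controls, and every si1 value lay below every control. Its mean was 11.5 ± 5.78 in si1, 35.3 ± 4.78 in si2 and 44.9 ± 10.4 in siSCR (SD, n = 3, 4 and 4), with a log2 fold change of -1.94 (SE 0.32, adjusted p = 0.0372) in si1 and -0.32 (SE 0.19, adjusted p = 0.389) in si2 by limma. The log2 difference of si2 to si1 was 1.62 (SE 0.30, limma adjusted p = 0.022), and 35.1% of POLA2 exon bases are shared with another annotated gene. POLD3, an accessory subunit of polymerase delta, had 62.3, 142 and 72.1 in si1, 128, 83.5, 84.0 and 87.6 in si2 and 78.9, 152, 179 and 152 in siSCR libraries. The library si1 2 lay apart from the other si1 libraries, and the log2 fold change was -0.64 in si1 and -0.51 in si2 against siSCR. POLE2, a subunit of polymerase epsilon, had 0.878, 0 and 12.02 in si1, 15.0, 12.8, 7.35 and 1.04 in si2 and 5.04, 16.0, 26.2 and 21.4 in siSCR libraries. It rested on 1, 0 and 8 reads in si1, and its log2 fold change of -2.45 in si1 (SE 0.89) and -1.01 in si2 (SE 0.66) against siSCR, the lowest of the group, carried the widest errors in it. POLD1, the catalytic subunit of polymerase delta, was at 95.7 in si1 2, against 14.1 and 18.03 in the other si1 libraries, 16.6 to 23.3 in si2 and 20.1 to 33.6 in siSCR libraries. It was the 1 member with a positive log2 fold change in si1, 0.060, against -0.46 in si2. POLA1, PRIM1 and POLE had log2 fold changes of -1.33, -1.11 and -1.28 in si1 and -0.62, -0.58 and -0.66 in si2 against siSCR.

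FEN1, the nuclease that trims flaps between lagging-strand fragments, and LIG1, the ligase that joins them, had log2 fold changes of -0.59 and -1.22 in si1 and -0.28 and -0.59 in si2 against siSCR. LIG1 had 100.11, 65.2 and 183 in si1, 144, 204, 124 and 201 in si2 and 163, 339, 271 and 257 in siSCR libraries, so that siSCR 1 lay within both the si1 and the si2 range. The median of both genes was -0.90 in si1 and -0.44 in si2, or -1.25 and -0.78 without siSCR 1. Without siSCR 1, LIG1 was called in si2 (-0.80, adjusted p = 0.0399) and not in si1 (-1.42, adjusted p = 0.0525).

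The subunits of RPA, which coats single-stranded DNA, had the median log2 fold change nearest to 0 of the groups in si1 against siSCR, -0.48, and a median of -0.41 in si2, or -0.68 and -0.58 without siSCR 1. RPA1, the large subunit, had 148, 197 and 222 in si1, 123, 165, 268 and 209 in si2 and 157, 295, 256 and 299 in siSCR libraries. The si2 values of RPA1 spread over the whole si1 range, and its log2 fold change was -0.39 in si1 and -0.41 in si2 against siSCR. RPA2 had 30.7, 12.5 and 21.0 in si1, 38.0, 40.1, 36.8 and 41.5 in si2 and 42.0, 43.8, 73.3 and 64.2 in siSCR libraries, with all si1 and si2 values below all controls and siSCR 1 close to siSCR 2. Its log2 fold change was -1.39 (SE 0.34, adjusted p = 0.0738) in si1 and -0.46 (SE 0.20, adjusted p = 0.243) in si2 by limma, and without siSCR 1 it fell in si1 (-1.51, adjusted p = 0.0403). RPA3 had log2 fold changes of -0.48 in si1 and 0.084 in si2 against siSCR, the last being -0.11 without siSCR 1.

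The chromatin genes had the lowest median log2 fold change of any group in si1, -2.34, with -0.48 in si2 against siSCR, and a median log2 difference of si2 to si1 of 1.86. Without siSCR 1 the medians against the controls were -2.78 in si1 and -1.01 in si2. CHAF1B (GRCh38 chr21:36385378-36419015), a subunit of CAF-1, which places histones on new DNA, had 5.27, 6.94 and 9.02 in si1, 27.4, 29.7, 58.8 and 42.5 in si2 and 17.6, 59.8, 60.2 and 42.8 in siSCR libraries. Every si1 value lay below siSCR 1, and the si2 values overlapped siSCR 2 to 4, where 1 si2 library came close to the highest control. Its mean was 7.07 ± 1.88 in si1, 39.6 ± 14.4 in si2 and 45.1 ± 20.0 in siSCR (SD, n = 3, 4 and 4). By limma its log2 fold change was -2.40 (SE 0.43, adjusted p = 0.0447) in si1 and -0.10 (SE 0.39, adjusted p = 0.915) in si2 against siSCR, where it was -0.49 without siSCR 1, and 2.29 (SE 0.30, adjusted p = 0.00949) in si2 against si1, the largest difference between the siRNAs among the members. CHAF1A, the large subunit, had 54.4, 115 and 76.6 in si1, 130.0, 122, 107 and 134 in si2 and 89.0, 232, 243 and 269.9 in siSCR libraries, and log2 fold changes of -1.28 in si1 and -0.64 in si2 against siSCR. UHRF1, which reads hemimethylated DNA behind the fork and recruits the maintenance methyltransferase, had 2.63, 2.78 and 3.01 in si1, 12.4, 6.42, 20.0 and 16.6 in si2 and 3.36, 25.6, 40.6 and 27.5 in siSCR libraries. Its si1 values rested on 3, 2 and 2 reads and that of siSCR 1 on 4 reads, so the fitted fold change depends on the pseudocount of 1. UHRF1 was higher in si2 than in si1 by 1.86 (SE 0.34, limma adjusted p = 0.0214). Without siSCR 1, 3 of the 3 chromatin genes fell in si1 and 2 in si2.

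The E2F factors among the members had median log2 fold changes of -1.74 in si1 and -0.69 in si2 against siSCR, or -2.12 and -1.16 without siSCR 1, where 2 and 3 of 3 fell. E2F1, an activator of S phase genes, had 37.8, 47.2 and 24.0 in si1, 93.7, 89.1, 79.8 and 91.7 in si2 and 53.7, 169.9, 140.0 and 159 in siSCR libraries. All si1 values lay below siSCR 1 and all si2 values between siSCR 1 and the other controls. For E2F1 the log2 fold change was -1.74 (SE 0.44, adjusted p = 0.0747) in si1 and -0.43 (SE 0.33, adjusted p = 0.511) in si2 by limma, and si2 exceeded si1 by 1.31 (SE 0.24, limma adjusted p = 0.022). E2F2, another activator, had 4.39, 15.3 and 3.01 in si1, 7.08, 10.4, 8.402 and 11.4 in si2 and 7.56, 19.2, 26.2 and 20.4 in siSCR libraries. E2F8, an atypical factor that represses E2F targets later in S phase, had 3.51, 0 and 9.02 in si1, 18.6, 18.5, 6.30 and 12.4 in si2 and 5.88, 27.8, 39.2 and 30.6 in siSCR libraries, with 0 reads in si1 2. These are low counts, and the log2 fold changes were -1.34 (SE 0.56) for E2F2 and -2.65 (SE 0.86) for E2F8 in si1, and -0.81 and -0.69 in si2 against siSCR. E2F8 had the lowest log2 fold change of the 45 members in si1.

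CLSPN and TIMELESS protect the moving fork and pass stress signals to the checkpoint kinase CHK1, and their median log2 fold change was -1.28 in si1 and -0.34 in si2, or -1.65 and -0.71 without siSCR 1. CLSPN had 57.1, 164 and 141 in si1, 250.3, 179.8, 176 and 191 in si2 and 112, 499, 417 and 369 in siSCR libraries. The si2 values lay between siSCR 1 and the other controls, and the log2 fold change was -1.47 in si1 and -0.63 in si2 against siSCR, with both called without siSCR 1. TIMELESS had 61.5, 111 and 73.6 in si1, 155, 167, 166 and 165 in si2 and 98.2, 204, 211 and 199.6 in siSCR libraries, and its si2 values were nearer to siSCR 2 to 4 than to si1. The log2 fold change was -1.09 in si1 and -0.064 in si2 against siSCR (-0.33 without siSCR 1), and the log2 difference of si2 to si1 was 1.03 (SE 0.22, limma adjusted p = 0.0346).

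Of the repair genes, BRCA1 (GRCh38 chr17:43044295-43170245) had 53.6, 34.7 and 75.1 in si1, 147, 175, 134 and 145 in si2 and 153, 295, 269 and 317 in siSCR libraries. The si1 values lay below every si2 and every control value, and siSCR 1 lay among the si2 libraries. The mean was 54.5 ± 20.2 in si1, 150.2 ± 17.4 in si2 and 258 ± 73.0 in siSCR (SD, n = 3, 4 and 4). By limma its log2 fold change was -2.24 (SE 0.34, adjusted p = 0.0338) in si1, -0.73 (SE 0.23, adjusted p = 0.126) in si2 and 1.51 (SE 0.27, adjusted p = 0.0199) in si2 against si1. In the authors' deposited table its log2 fold change in si1 was -1.98 with an adjusted p of 4.37e-09. BRCA2, which works in homologous recombination, and EXO1, an end-resecting nuclease, had log2 fold changes of -1.25 and -0.85 in si1 and -0.56 and -0.53 in si2 against siSCR. The median of the 3 repair genes was -1.25 in si1 and -0.56 in si2, or -1.57 and -0.97 without siSCR 1, where 2 and 3 of them fell.

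To set levels of different genes side by side, they were taken per kilobase of exon. In siSCR 2 to 4 the highest were MCM7 at 193, PCNA at 188, MCM4 at 105 and MCM3 at 104 normalized counts per kb, and the lowest were GINS3 at 4.77 and E2F2 at 4.02. In si1 libraries PCNA came first at 158 and MCM7 second at 64.4, and in si2 libraries PCNA at 148 and MCM7 at 101, so the order of both genes differed from that in siSCR 2 to 4. With siSCR 1 included, the siSCR means were 176 for PCNA and 167 for MCM7, the same order as in si1 and si2. The si1 mean of PCNA includes the high si1 2 library.

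Other genes of the same pathways were taken from 6 lists of 66 genes that hold no member. In si1 against siSCR 4 of 65 tested fell and 0 rose, against 0.932% and 0.789% of genes, among them CCNE2 (log2 fold change -2.19), a cyclin that starts S phase, and DONSON (-1.59) and MTBP (-1.31), both of which work in replication initiation. The median log2 fold change over the 65 was -0.80, and without siSCR 1, where 6.52% of genes were called lower, 28 fell and 1 rose. In si2 against siSCR 1 of 64 tested was called (3.12% of genes), CHEK1 (-1.15), the checkpoint kinase, which fell. The median was -0.23, and without siSCR 1 20 of 65 fell (6.68% of genes). In si2 against si1 9 of 63 tested rose (3.71% of genes), among them CCNE2 (1.93), RRM2 (1.51), a subunit of ribonucleotide reductase, FANCD2 (1.24) and RNASEH2A (1.08). ASF1A (-1.03), a histone chaperone, was the 1 that fell, and the median was 0.50. By list, the median log2 fold changes in si1 and in si2 were -1.05 and -0.24 for 14 licensing and initiation factors, -0.48 and -0.21 for 11 polymerase and loader subunits, and -0.76 and -0.073 for 8 genes of nucleotide supply. They were -0.75 and -0.24 for 12 cyclins, kinases and E2F or RB regulators, -1.01 and -0.30 for checkpoint and recombination genes (13 tested in si1 and 12 in si2), and -0.80 and -0.20 for 7 genes of replication-coupled chromatin. Without siSCR 1 the same medians were -1.23 and -0.47 for licensing and initiation, -0.74 and -0.44 for polymerase and loader subunits, -1.12 and -0.27 for nucleotide supply, -0.85 and -0.47 for cyclins, kinases and regulators, -1.56 and -0.67 for checkpoint and recombination and -1.19 and -0.53 for chromatin. Of the exon bases of CCNE2, 37.1% are shared with INTS8.

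Genes of mitosis and of the p53 response were taken as further lists. Of 16 mitosis genes limma called 0 in si1 and 0 in si2 against siSCR, with 11 and 2 lower at an unadjusted p under 0.05 and 1 called by voom in each, and medians of -1.45 and -0.62. Without siSCR 1, the medians were -1.90 and -1.11, and 11 fell in si1 (6.52% of genes) and 15 in si2 (6.68% of genes). In si2 against si1 BUB1B (1.28) rose, 1 of 16 against 3.71% of genes. Of 12 p53 targets, BTG2 (2.07) and PMAIP1 (1.85) rose in si1 (0.789% of genes), and FAS (-1.12) fell in si2 (3.12% of genes called in either direction). The medians were 1.49 in si1 and 0.31 in si2. Without siSCR 1, 9 rose in si1, 6 rose and 1 fell in si2, and the medians were 1.99 and 0.69. Those fits called 13.5% of all genes in si1 and 14.4% in si2, counting both directions. In si2 against si1 7 of the 12 fell (3.02% of genes). CDKN1A, the inhibitor of cyclin-dependent kinases known as p21, had 9083, 5710 and 5846 in si1, 2883, 2505, 3479 and 2815 in si2, and 4349, 892, 948 and 853 in siSCR libraries. The libraries with high CDKN1A, si1 and siSCR 1, were those with low levels of the members, and si2 lay between them and siSCR 2 to 4 in both. The part of these genes in the results on the members was not tested.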

How the data were processed

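RNA of 11 libraries was sequenced. The submitters' processing notes name cutadapt, FastQC, STAR and the build GRCh38, and per the labels' protocols HTSeq counts were normalized with DESeq2's relative log expression. Their versions, and strandedness, are not given in the sources used here. Columns the authors deposited held log2 values, the log2 of the normalized count plus 1. Undone, 100% of the values in each library were whole multiples of 1 step within 0.01 read, which gave the reads and the depth. Depth was lowest in si1 2 and si1 3, where low members rest on a few reads. Control libraries had the same values in either table. Each table, per the file headers, further holds the authors' own mean normalized signal per gene, log2 fold changes, p-values and adjusted p-values.

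Genes that reached a normalized count of 10 in a number of libraries equal to the size of the smaller group were tested with limma 3.58.1 (R 4.3.3) on log2(normalized count + 1), per pair of groups, with p-values adjusted over all genes by Benjamini-Hochberg and called under 0.05. Adding 1 draws the fold changes of low genes toward 0. A library with 0 reads, however, lowers the mean log2 value of its group, so fold changes of low genes can also be overstated. POLE2 and E2F8, for example, had log2 fold changes of -2.45 and -2.65 in si1 against siSCR here. The authors' deposited table gave -0.93 and -1.40. All 45 members passed the filter in each comparison, and the scripts were tested on simulated data. GINS3, CHAF1B, UHRF1 and E2F8 passed with no si1 library at 10. Some other members, POLA2 among them, reached 10 in too few si1 libraries to pass by si1 alone. Exon lengths and overlaps came from GENCODE 29, matched by identifier for 33001 genes.

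The members and lists were chosen with earlier results of these data known, so no test of a list was made. Values in every library are given for members called in any comparison and, in each complex, for the highest mean normalized count, not per length, and the lowest fold change against siSCR with either siRNA. From the other lists called genes are named, up to 4 each, apart from a result that is not reported here. Alternatives were another scaling, filter, pseudocount, trend, pooled fit, replicate block, mitochondrial covariate, voom on the recovered reads and leaving out each library.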

Additional observations from a re-analysis of the deposited data

Results flagged for a closer look

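In 8 of the 26 members given by library, siSCR 1 lay further from the other siSCR libraries than a group of 4 usually allows, by Dixon's ratio of gap to range. Its normalized counts there were 147 for MCM5, 393 for MCM7, 42.8 for CDC6, 119 for CDT1, 57.1 for MCM10, 89.0 for CHAF1A, 53.7 for E2F1 and 98.2 for TIMELESS. All ratios were taken on log2(normalized count + 1) and not on the counts printed here, on which some would not be flagged. The mean centred log2 level of all members was apart in the same way, at -0.52 in siSCR 1. Over all 45 members siSCR 1 was apart in 14, si2 1 in 2 and si2 3 in 1. Chance flags about 1 in 20 unrelated groups, but the members vary together and are not unrelated. The share flagged over all genes was not computed, so the count of 14 is not a result particular to the members. The library si2 1 was apart from the other si2 libraries with 128 for POLD3, on the high side, and with 155 for TIMELESS, on the low side.

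The effects of the siRNAs differed by limma's test of si2 against si1 in 12 of 45 members, each higher in si2. Over all genes, 3.71% were called higher. With the mitochondrial share as a covariate 1 of 45 was called (1.6% of genes), and with the replicate block 0 of 42 (0.0579% of genes). The log2 differences were 0.98 for MCM2, 1.19 for MCM4, 1.12 for CDC6, 1.97 for GINS3, 1.23 for GINS4, 1.41 for RFC3, 1.62 for POLA2, 2.29 for CHAF1B, 1.86 for UHRF1, 1.31 for E2F1, 1.03 for TIMELESS and 1.51 for BRCA1. In each of the 12 all 4 si2 libraries lay above all 3 si1 libraries, as in 13.4% of genes. The 12 were called on these same libraries, so this adds no support. GINS3, CHAF1B and UHRF1 had passed the filter on low values only through si2, and POLA2 had needed the si2 libraries to pass it.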

How the results depend on the processing

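Depth limits the lowest members, which rest on under 10 reads in some si1 libraries, and the control group holds 1 library apart from the rest. Shares in parentheses are of all genes called in the same fit. In si1 against siSCR limma called 4 of 45 members (1.72%), and 0 with no filter on low values (0.0301%), 9 of 32 tested with a minimum of 50 (7.82%), 7 with a pseudocount of 5 (3.94%), 13 with limma-trend (6.76%), 21 with 1 fit over all 11 libraries (10.8%) and 0 with the replicate block (0%). Alternatives chosen after seeing the data gave 8 with voom (5.53%) and 38 with all 11 libraries in one fit less siSCR 1 (22.4%). Leaving out 1 library gave 0 to 28, with 28 without siSCR 1 (13.5%) and 0 without any other, and medians of -1.65 to -1.15 on the log2 scale. In si2 against siSCR limma called 0 (3.12%), and 19 with a mitochondrial covariate (13.1%) and 11 in one fit less siSCR 1 (7.4%). Leaving out 1 library gave 0 to 27, with 27 without siSCR 1 (14.4%) and 0 without any other, and medians of -0.81 to -0.32. In si2 against si1 limma called 12 (6.74%), and 3 with no filter (1.37%), 7 with 1 fit over all 11 libraries (7.56%), 0 with the replicate block (0.0579%) and 1, RPA2, with the mitochondrial covariate (1.6%). Leaving out 1 library gave 3 to 18 (1.16% to 7.54%). The median there was 0.84, 0.27 with the mitochondrial covariate and 0.58 to 1.00 with 1 library left out. The cause of these shifts was not tested.

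A few small log2 fold changes turned in sign. With 1 library left out, PCNA in si1 against siSCR ranged from -0.72 to 0.17, positive only without si1 1. In si2 against siSCR, CHAF1B ranged from -0.49 to 0.079, GINS3 from -0.47 to 0.18 and TIMELESS from -0.33 to 0.038, each lowest without siSCR 1. Of 466 values of single genes in si1, 352 kept their direction and side of the threshold, 43 lost the call, 70 gained one and 1 reversed. In si2 the numbers were 453, 0, 42 and 10 of 505. In si2 against si1 112 of 192 values of the called members were kept and 80 lost the call.

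The replicate numbers were not shown to pair the libraries. Deviations of equal numbers from the group means correlated at 0.394, 0.0958 and 0.128 for replicates 1, 2 and 3 of si1 and siSCR. They correlated at -0.0317 to 0.164 between si2 and siSCR and -0.00241 to 0.0993 between si2 and si1. The most correlated siSCR library had the equal number for si1 1 and si1 3 and for si2 1, si2 3 and si2 4, and not for si1 2 or si2 2. The pair at 0.394, si1 1 and siSCR 1, also had the highest mitochondrial shares, 11.1% and 12.1%. A reason for this was not tested. The fit with the replicate block called 0 members in each comparison. The count-model alternatives that had been planned were not run.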

Other observations

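Over the 11 libraries, each member's log2 value was set against the mean of the other 44, as a description of libraries that share their size factors and fall into separate levels. Pearson's r had a median of 0.860, and 30 of 45 members reached 0.8, with MCM4 the highest at 0.972. The lowest were POLD1 at 0.174, PCNA at 0.533, RPA1 at 0.624, POLE2 at 0.688 and RPA2 at 0.702. The highest of the 11 libraries was 1 of siSCR 2 to 4 in 42 members, si1 2 in POLD1 and PCNA, and si2 3 in 1 member. The lowest was si1 1 in 30 members, si1 2 in 10, si1 3 in 2, si2 1 in RPA1, and siSCR 1 in ORC1 and FEN1. Neither the correlations of members nor these counts were computed for other genes, so no share over all genes stands beside them. The number of genes with a read was 11618 in si1 2 and 13154 to 14355 in the other libraries.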
